A study of Homo sapiens with 8 samples.

Results

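The transcripts of 10 chemokine genes were followed in A549 cells exposed to the ethanol extract of *Descurainia sophia* seeds (EEDS) or to helveticoside, a cardiac glycoside purified from that extract. The 10 genes were CXCL1, CXCL2, CXCL3, CXCL5, CXCL6, CXCL8, CXCL10, CXCL16, CCL2 and CCL20. They were chosen by symbol, as chemokines that these cells could make, and they were 10 of the 19056 genes that the probes of the arrays could be matched to. A549 is an established line from a human lung carcinoma with epithelial features. The cells are grown without leukocytes, so that only the making of chemokines, and not the response of the cells they attract, could be read from it.

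Expression was read on 8 Agilent arrays of the whole human genome, each with a single dye, which fall into 2 series. The EEDS series held the vehicle control and 1.25, 5 and 20 μg/mL EEDS, and the helveticoside series held its own vehicle control and 3.75, 15 and 60 nM helveticoside. All cells were A549, and nothing other than the agent and its dose was varied according to the labels. Each dose had 1 array, hybridised with a pool of the RNA of 3 cultures, so the error between cultures was lost and no p-value exists for a single dose. The exposure lasted 24 h by the methods of the study, but the labels name 48 h in a text that also covers a viability assay. The agent and the series cannot be told apart, because each agent was run with a control of its own.

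Chemokines are small secreted proteins that guide the migration of leukocytes through receptors on their surface. The ligands CXCL1, CXCL2, CXCL3, CXCL5, CXCL6 and CXCL8 act on CXCR2, several of them also on CXCR1, and attract neutrophils. CXCL10 is induced by interferons and attracts T cells through CXCR3, CXCL16 is made as a membrane protein that can be shed, CCL2 attracts monocytes through CCR2, and CCL20 attracts CCR6-bearing lymphocytes and dendritic cells. In airway epithelium many of these genes are switched on by interleukin 1 and tumour necrosis factor through NF-kappa B, and their short-lived mRNAs are cleared through AU-rich elements.

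The promoters of these genes are shown first, since 7 of the 8 that were in the RefSeq promoter table carried the same 9 letters. The table holds the bases before each start site in GRCh38.p14 and had no entry for CXCL16 or CCL2. The element GGAATTTCC, a sequence that NF-kappa B is known to bind, was searched on both strands in the 250 bases before the start and was present in 145 of 35116 promoters (0.413%). It was found at 91 to 83 bases before the start of CXCL8, at 90 to 82 of CXCL5, at 89 to 81 of CXCL6, at 78 to 70 of both CXCL1 and CXCL3, and at 77 to 69 of CXCL2. In CXCL10 it lay farther out, at 176 to 168 bases before the start and on the other strand (GGAAATTCC). CCL20 did not hold these letters in this window. Only this exact word was searched, so other sequences that NF-kappa B may bind, in CCL20 or elsewhere, were not looked for. The last 130 bases before the start are printed 5′ to 3′ on the coding strand, with the element in capitals, for the genes that were measured in these cells and for CXCL6, which was not measurable but carries the same element. They lie at chr4:73740439-73740568 (CXCL8), chr4:73869263-73869392 (CXCL1) and chr4:73836548-73836677 (CXCL6) on the plus strand. Those of the minus strand lie at chr4:74099196-74099325 (CXCL2), chr4:74038690-74038819 (CXCL3) and chr4:73998678-73998807 (CXCL5). That of CCL20 lies at chr2:227813712-227813841 on the plus strand.
CXCL8: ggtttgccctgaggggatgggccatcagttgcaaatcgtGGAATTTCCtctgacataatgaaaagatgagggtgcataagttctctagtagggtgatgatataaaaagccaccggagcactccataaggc
CXCL1: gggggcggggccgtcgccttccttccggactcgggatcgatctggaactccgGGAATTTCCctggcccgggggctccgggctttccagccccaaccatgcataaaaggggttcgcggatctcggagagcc
CXCL2: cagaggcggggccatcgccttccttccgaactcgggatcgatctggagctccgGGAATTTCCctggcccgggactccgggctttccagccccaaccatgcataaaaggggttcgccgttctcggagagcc
CXCL3: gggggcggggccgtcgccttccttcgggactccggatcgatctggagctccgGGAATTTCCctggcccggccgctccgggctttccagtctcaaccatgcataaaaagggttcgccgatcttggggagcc
CXCL5: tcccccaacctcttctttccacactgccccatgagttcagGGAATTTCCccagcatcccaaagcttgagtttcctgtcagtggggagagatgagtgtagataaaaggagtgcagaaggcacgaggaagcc
CXCL6: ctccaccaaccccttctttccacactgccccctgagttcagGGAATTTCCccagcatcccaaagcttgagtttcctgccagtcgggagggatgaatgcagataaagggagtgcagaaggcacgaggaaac
CCL20: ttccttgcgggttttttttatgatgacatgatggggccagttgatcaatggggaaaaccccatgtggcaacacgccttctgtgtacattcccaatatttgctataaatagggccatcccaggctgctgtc

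Some of the promoters with the shared element formed 2 closely related sets. Over the 250 bases, the promoter of CXCL1 was identical to that of CXCL3 at 84% of the bases and to that of CXCL2 at 75.6%, and CXCL5 was identical to CXCL6 at 85.6%. The sets were less alike, with 56.4% between CXCL3 and CXCL6. CXCL8 and CXCL10, which also carried the element, belonged to neither set, and their closest match was each other, at 53.6%. The other motifs searched were found in fewer of these genes. The motifs differ in length and in free positions (N, any base), so their counts cannot be set against each other. The AP-1 site TGANTCA (both strands) was found in CXCL8 alone and in 6.57% of all promoters, the C/EBP site TTGCNNAA (both strands) in CXCL2 alone and in 9.05%, and the interferon-stimulated response element in CXCL10 alone and in 3.02%. TATAAA on the coding strand was found in CXCL8 and CCL20 and in 6.8% of all promoters. The EGR site GCGNGGGCG (both strands) was found in 0 of the 8 and in 8.41% of all promoters. These are matches of letters and not measured binding. Genes outside the 10 that held the element included both higher and lower ones. There were 130 of them, and 56 of them could be compared at 20 μg/mL EEDS, of which 12 (21.4%) were over 2-fold higher and 8 over 2-fold lower, beside 15.4% and 16.8% of all genes. At 60 nM helveticoside, 51 could be compared, with 9 (17.6%) over 2-fold higher and 6 over 2-fold lower, beside 11.5% and 14.1% of all genes.

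Of the 10 chemokines, 8 were well above background on at least 1 array, by the call of the scanner software. CXCL6 and CXCL10 were not well above background on any of the 8 arrays, so the name of a chemokine made by A549 cells is not borne out for them here. All 9 markers of A549 cells (KRT8, KRT18, KRT19, EPCAM, CDH1, AKR1B10, AKR1C1, ALDH1A1 and ALDH3A1) were well above background on all 8 arrays. Their summed normalised signal was 1219318 and 1173199 on the 2 control arrays and 698661 and 580310 at the top doses of EEDS and helveticoside. Of the 9, 3 were more than 2-fold lower at the top dose of EEDS and 5 at that of helveticoside, and 0 were more than 2-fold higher. CDH1, KRT19 and AKR1B10 were more than 2-fold lower with both agents. The median log2 ratio of the 9 was -0.98 and -1.08. Of the 6 leukocyte markers that could be matched to a probe (LYZ could not), PTPRC, CD14, ITGAM and CD68 were well above background on some array. The summed signal of the leukocyte markers was 3323 and 2961 on the controls and 1727 and 1172 at the top doses. Of the 4 that could be compared, 0 were more than 2-fold higher and 1 was more than 2-fold lower at each top dose. Over all genes, 15.4% and 11.5% were higher and 16.8% and 14.1% lower. The part of these markers in the chemokine values was not tested.

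At the top dose of each agent, at least 5 of the 8 measurable chemokines exceeded the vehicle control by more than 2-fold, and none was more than 2-fold lower at any dose. At 20 μg/mL EEDS, 7 of 8 (CXCL1, CXCL2, CXCL3, CXCL5, CXCL8, CCL2 and CCL20) were more than 2-fold higher, beside 15.4% of the 14135 genes that could be compared, and 6 of them were more than 4-fold higher. The share of all genes that were more than 2-fold lower there was 16.8%. At 60 nM helveticoside, 5 of 8 (CXCL1, CXCL2, CXCL5, CXCL8 and CCL2) were more than 2-fold higher, beside 11.5% of 13146 genes, and 14.1% of all genes were more than 2-fold lower. The median log2 ratio of the chemokines, with bounds where only bounds exist, was 2.59 and 1.29 at these doses, beside -0.01 and 0.03 over all genes. A log2 ratio is the difference of the log2 normalised intensities of the treated and the control array. A gene was compared when at least 1 of the treated and control arrays was well above background for it. Where the other array was not, the value is a bound. For a bound, the dimmer array was given the lowest signal that counts as well above background there, or the signal of the gene itself where that was higher. In an extract of many cells, more cells that make a transcript and more transcript per cell cannot be told apart.

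Of the chemokines, only CXCL8 was past 2-fold at every lower dose of both agents. The doses of the 2 agents do not match, so their values stand side by side and are not compared. At 1.25 μg/mL EEDS, 6 of 8 chemokines were more than 2-fold higher (CXCL1, CXCL2, CXCL3, CXCL5, CXCL8 and CCL2), beside 4.26% of all genes, with a median log2 ratio of 1.54. At 5 μg/mL it was again 6 of 8, with CCL20 in place of CCL2, beside 8.04%, and the median was 1.30. At 3.75 nM helveticoside, 2 of 7 (CXCL8 and CCL2) were more than 2-fold higher, beside 1.85%, with a median of 0.53. At 15 nM, 2 of 7 (CXCL5 and CXCL8) were, beside 6.14%, with a median of 0.81. The only measure of how far 2 arrays differ without a drug is the pair of control arrays. Over the 12385 genes well above background on both, their log2 difference had an SD of 0.50, and 656 genes (5.30%) differed by more than 2-fold.

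**Figure D1:**
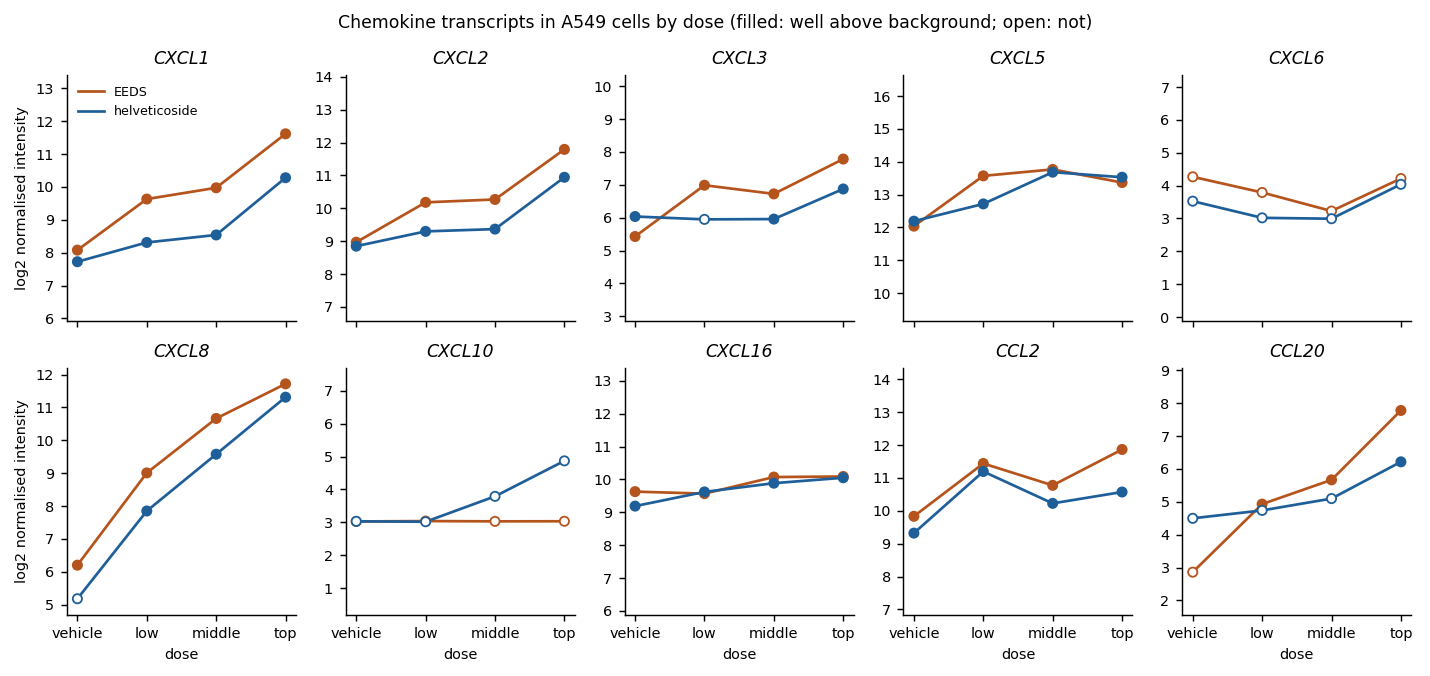
Level of each chemokine transcript, as log2 normalised intensity, against the dose of EEDS (orange) or helveticoside (blue), 1 array a point, with vehicle, low, middle and top standing for 0, 1.25, 5 and 20 μg/mL EEDS or 0, 3.75, 15 and 60 nM helveticoside. Filled points were well above background and open points were not; every panel spans the same number of log2 units but starts at a different level, and CXCL8 climbs at each dose while CXCL6 has open points only.

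CXCL8, which encodes interleukin 8 and is the classical neutrophil attractant of epithelium, moved most of the 10. Its log2 level was 6.20 on the EEDS control and 9.01, 10.66 and 11.72 at 1.25, 5 and 20 μg/mL EEDS. On the helveticoside control it was 5.18 and not well above background, and at 3.75, 15 and 60 nM it was 7.85, 9.58 and 11.31. The levels climbed at every dose of both agents, and the lowest treated array lay above both controls. With EEDS the gene was 7.00-fold, 22.1-fold and 45.8-fold higher than on the control, and with helveticoside at least 4.91-fold, 16.3-fold and 54.2-fold higher. The top-dose values depended on the processing. The log2 bound at 60 nM, 5.76 here, was 4.02 from the deposited table, 4.41 without background subtraction and 4.45 with normexp correction, and the ratio at 20 μg/mL EEDS, 5.52 here, was 4.43 without background subtraction. Where only genes with both arrays well above background are ranked, its log2 ratio was the sixth of 13305 from the top at 1.25 μg/mL, the first of 13140 at 5 μg/mL and the fifth of 12968 at 20 μg/mL. The control arrays differed by 1.02 in the level of this gene, the helveticoside control being the lower. In the limma fit over all arrays and genes, CXCL8 rose with the dose step by 1.82 per step of EEDS (SE 0.20, adjusted p = 0.0134) and by 2.01 per step of helveticoside (SE 0.20, adjusted p = 0.0165). A step is the move from one dose of the series to the next, the control being the start.

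The increments of CXCL8 became smaller along the EEDS series. They were 2.81, 1.66 and 1.05 on the log2 scale from the control to 1.25, to 5 and to 20 μg/mL. Along helveticoside they were 1.73 from 3.75 to 15 nM and 1.74 from 15 to 60 nM, and the first increment was not measured, since the control was not well above background. The 5 genes whose 6 log2 ratios lay nearest to those of CXCL8, among 12290 genes well above background on both top-dose arrays, were CD274, C11orf96, TXNIP, NOG and REM2. Nearness was the Euclidean distance over the 6 treated arrays, and it was 1.01 for CD274, which encodes the immune checkpoint ligand PD-L1. The log2 ratios of CD274 were 2.77, 3.65 and 5.24 with EEDS and 2.44, 3.98 and 5.91 with helveticoside. The helveticoside control was not well above background for CXCL8 or for any of these 5 genes, nor was the EEDS control for C11orf96 and NOG, so the distances rest in part on background values and are a description only. C11orf96 followed at a distance of 1.60, and the other 3 lay between 2.69 and 2.88.

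CXCL1, the first of the GRO chemokines, climbed at each dose of both agents. Its log2 levels were 8.08 on the control and 9.63, 9.97 and 11.62 at the rising doses of EEDS, and 7.72 on the control and 8.31, 8.54 and 10.28 at the rising doses of helveticoside. All 6 treated arrays lay above both controls, and the top dose stood apart from the lower doses. It was 11.6-fold higher at 20 μg/mL EEDS and 5.88-fold higher at 60 nM helveticoside. The slope was 1.10 per step of EEDS (SE 0.18, limma adjusted p = 0.0212) and 0.79 per step of helveticoside (SE 0.18, limma adjusted p = 0.0489), both rising. The other probe of the gene gave smaller log2 ratios, 2.12 and 1.26 at the top doses against 3.54 and 2.56, and with the mean of both probes the trend of CXCL1 with helveticoside no longer passed the test.

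CXCL2 had the same shape as CXCL1, with a small step at the middle dose and a large one at the top dose. Its log2 levels were 8.97, 10.18, 10.27 and 11.79 along the EEDS series and 8.85, 9.30, 9.37 and 10.95 along the helveticoside series, and again all treated arrays lay above both controls. From the middle to the top dose the level was 1.52 higher with EEDS and 1.58 higher with helveticoside, whereas from the low to the middle dose it was 0.09 and 0.07 higher. CXCL2 was 7.08-fold higher at the top dose of EEDS and 4.28-fold higher at that of helveticoside. It rose with EEDS by 0.86 per step (SE 0.18, limma adjusted p = 0.0355), and its helveticoside slope of 0.64 did not pass (SE 0.18, limma adjusted p = 0.0811). The helveticoside slope passed under 5 of the 8 alternatives that keep all arrays, but in 0 of the 8 fits without 1 array. The other probe of CXCL2 gave log2 ratios of 1.60 and 1.17 at the top doses against 2.82 and 2.10.

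CXCL3, the third GRO gene, was higher at every dose of EEDS and at the top dose of helveticoside. Its log2 levels were 5.43, 6.99, 6.72 and 7.78 along the EEDS series and 6.04, 5.95, 5.96 and 6.87 along the helveticoside series, where the array at 3.75 nM was not well above background. All EEDS-treated arrays lay above both controls, while the lower 2 doses of helveticoside lay just under their own control. The gene was 5.12-fold higher at 20 μg/mL EEDS and 1.79-fold higher at 60 nM helveticoside. Neither slope passed the test, at 0.68 per step of EEDS (SE 0.18, limma adjusted p = 0.0636) and 0.25 per step of helveticoside (SE 0.18, limma adjusted p = 0.456). The EEDS slope passed under 5 of the 8 alternatives that keep all arrays, among them the signal without background subtraction, which gave a log2 ratio of 1.20 instead of 2.36 at 20 μg/mL. That slope passed in 0 of the 8 fits without 1 array. The slopes of the 2 agents differed by -0.43 (SE 0.26, limma adjusted p = 1). CXCL1, CXCL2 and CXCL3 are near-identical paralogs, and how far the probes of one bind transcripts of another was not tested.

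CXCL5, an attractant of neutrophils that lung epithelium makes, was higher on all treated arrays with no further gain at the top dose. Its log2 levels were 12.04, 13.57, 13.77 and 13.37 along the EEDS series and 12.19, 12.72, 13.68 and 13.53 along the helveticoside series. The 2 controls were the lowest arrays of the 8, but the top dose lay below the middle dose with both agents, by 0.40 and 0.15. It was 2.89-fold, 3.31-fold and 2.51-fold higher at the rising doses of EEDS and 1.44-fold, 2.81-fold and 2.53-fold higher at those of helveticoside. No member spot was saturated on any array. The slopes were 0.42 and 0.50 per step (SE 0.21 for both), and neither passed the test (limma adjusted p = 0.234 and 0.187). CXCL6, whose promoter is the one most like that of CXCL5, gave log2 values between 2.99 and 4.27 on the 8 arrays, none of them well above background, so no ratio is given for it.

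**Figure D2:**
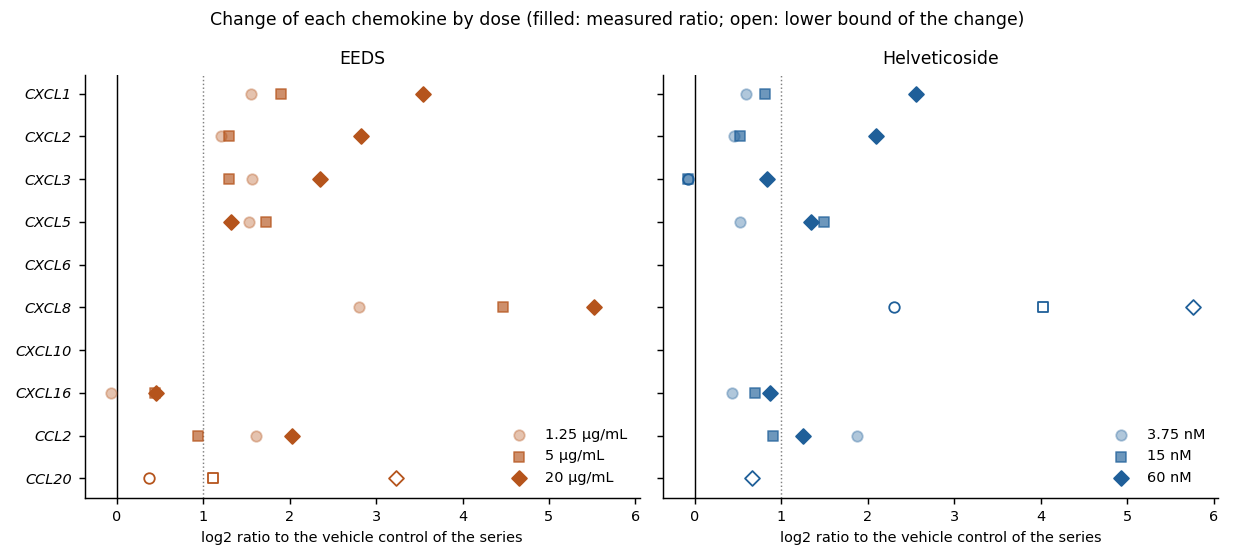
Log2 ratio of each chemokine to the vehicle control of its series (horizontal axis, 0 marked by the solid line and a 2-fold change by the dotted line) at the 3 doses of EEDS (left) and helveticoside (right), 1 array a point. Open points are bounds where 1 of both arrays was not well above background; genes without a point at a dose have no bound, and at the top doses CXCL8 lies farthest right with 5.52 and at least 5.76.

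CXCL10, the interferon-inducible ligand of CXCR3, was not measurable, although one of its probes passed the dose test. The log2 value of the probe used was 3.03 on both controls, between 3.03 and 3.04 at the doses of EEDS and 3.02, 3.79 and 4.87 at the doses of helveticoside, and none of these was well above background. Its helveticoside slope of 0.63 passed the test (SE 0.11, limma adjusted p = 0.0308), but the other probe of the gene had log2 ratios between -0.05 and 0.04 at the 3 doses of helveticoside. Because nothing on these arrays separates the value from background, no fold is given. When only genes well above background on at least 1 array were tested, CXCL10 was not among them.

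CXCL16, the chemokine made with a membrane anchor, moved little. Its log2 levels were 9.63, 9.57, 10.07 and 10.09 along the EEDS series and 9.19, 9.62, 9.89 and 10.05 along the helveticoside series. The low-dose arrays of both series lay within the range of the 2 controls, and the 4 others lay above it. The gene was 1.38-fold and 1.82-fold higher at the top doses, and its slopes of 0.19 and 0.29 (SE 0.07 for both) did not pass the test (limma adjusted p = 0.116 and 0.0530). Of the 2 proteases that can release CXCL16 from the membrane, ADAM17 had log2 ratios of 1.53 and 1.06 and ADAM10 of 1.11 and 1.07 at the top doses of EEDS and helveticoside. ADAM10 rose with both agents (limma adjusted p = 0.0417 and 0.0433) and ADAM17 with EEDS (limma adjusted p = 0.0342).

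CCL2, the monocyte attractant MCP-1, dipped at the middle dose in both series. Its log2 levels were 9.83, 11.44, 10.77 and 11.86 along the EEDS series and 9.32, 11.20, 10.23 and 10.57 along the helveticoside series. All treated arrays lay above both controls, but the middle dose lay 0.67 and 0.97 below the low dose. The gene has 10 spots on each array, whose SD was 0.05 to 0.09 on the log2 scale, so the dip exceeded the spread within an array, while the spread between cultures is unknown. It was 3.05-fold, 1.92-fold and 4.09-fold higher at the rising doses of EEDS and 3.67-fold, 1.87-fold and 2.38-fold higher at those of helveticoside. At 60 nM its log2 ratio of 1.25 was 0.74 against the control of the EEDS series, which is no longer past 2-fold. At 3.75 nM its log2 ratio of 1.88 was the sixteenth of 11862 genes from the top. No straight trend could be called, with slopes of 0.54 and 0.28 per step (SE 0.29 for both, limma adjusted p = 0.265 and 0.642).

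CCL20, which attracts cells that bear CCR6, came up from background. Its log2 value was 2.86 on the EEDS control, not well above background, and 4.93, 5.67 and 7.78 at the rising doses of EEDS. Along the helveticoside series it was 4.50, 4.74, 5.10 and 6.22, well above background at 60 nM only. The gene was at least 1.30-fold, 2.17-fold and 9.36-fold higher at the rising doses of EEDS and at least 1.58-fold higher at 60 nM helveticoside, with the processing used here. The log2 bound at 20 μg/mL, 3.23 here, was 1.87 without background subtraction and 1.94 with normexp correction, and against the other series' control it was 2.23 there and 1.66 at 60 nM. It rose with EEDS by 1.55 per step (SE 0.16, limma adjusted p = 0.0133), a slope that rests in part on a control value in the background and was 0.58 without background subtraction. Its helveticoside slope was 0.55 (SE 0.16, limma adjusted p = 0.0884). The background values of the 2 controls differed by 1.64, the helveticoside control being the higher.

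The dose trends of the chemokines, counted from the fit over all genes, were 4 rising with EEDS (CXCL1, CXCL2, CXCL8 and CCL20), beside 7.25% of 19056 genes, and 3 rising with helveticoside (CXCL1, CXCL8 and CXCL10), beside 5.47%. None fell. With 1 array a dose, the scatter of the arrays about straight lines stands in for replicates, which left 4 residual degrees of freedom, and leaving out single arrays took calls away. CXCL1, CXCL8 and CCL20 were called with EEDS in 6 of the 8 fits without 1 array, and CXCL2 in 2 of them. No chemokine was called with EEDS without its control or its top dose. With helveticoside, CXCL8 was called in 5 of 8 such fits, CXCL10 in 2 and CXCL1 in 0, and none was called without the array at 15 or at 60 nM. The call of CXCL8 with helveticoside was also lost without the helveticoside control.

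The slopes per step were also compared between the agents within the same fit. For 0 of the 10 chemokines and for 0% of 19056 genes did the slopes differ at an adjusted p under 0.05 by limma. An unadjusted p under 0.05 was found for 526 genes, fewer than the share of 0.05 expected if no slopes differed. CCL20 was one of them, with a helveticoside slope below the EEDS slope (a difference of -0.998, SE 0.23, unadjusted p = 0.0058, limma adjusted p = 1). Both controls and the lower 2 helveticoside doses of CCL20 were not well above background, and without background subtraction the difference was -0.39. CXCL10 was the other, with a difference of 0.63 (SE 0.16, unadjusted p = 0.0093, limma adjusted p = 1) that rests on values in the background. For CXCL8 the difference was 0.19 (SE 0.28) and for CXCL1 -0.31 (SE 0.25). A step of one agent and a step of the other are not equal doses, and a test that was not passed does not show that the slopes were alike.

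**Figure D3:**
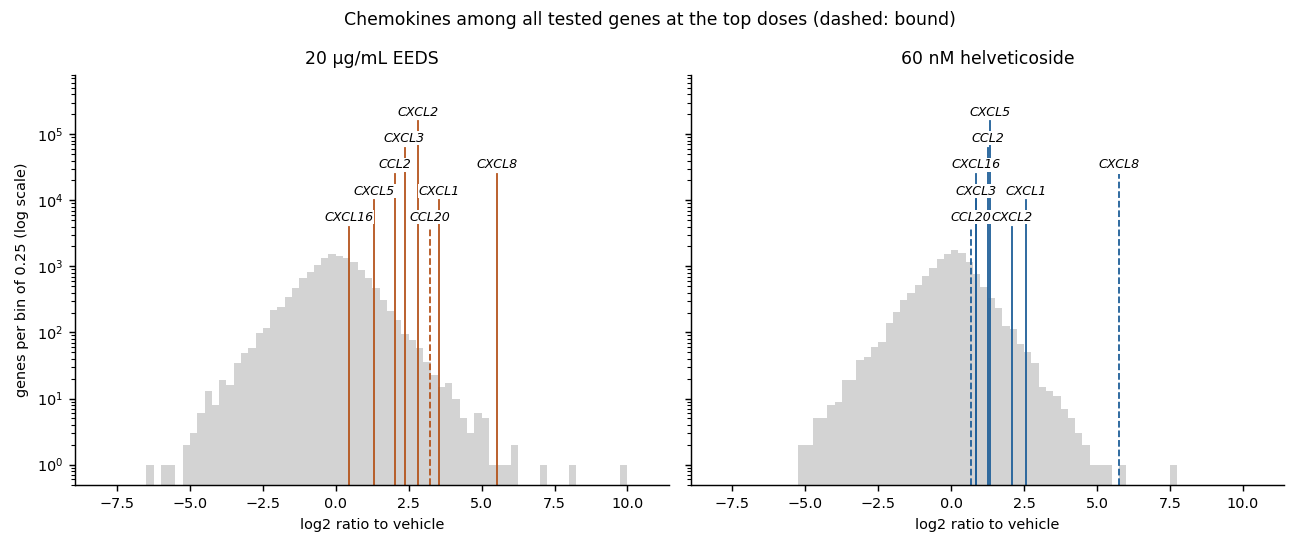
Number of genes (vertical axis, log scale) by log2 ratio to vehicle in bins of 0.25 at 20 μg/mL EEDS (left, 14092 genes) and 60 nM helveticoside (right, 13134 genes), for the genes with a measured ratio or a bound. Vertical lines mark the chemokines, dashed where the value is a bound; all 8 lie to the right of 0, with CXCL16 (0.46) nearest to it on the left and CCL20 (at least 0.66) on the right.

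CXCL8, CXCL6, CXCL1, CXCL5, CXCL3 and CXCL2 lie in a row on chromosome 4, and the change was not shared by all genes in that row. In the order of the RefSeq annotation, RASSF6 precedes CXCL8 and had log2 ratios of -0.34 at both top doses. CXCL8, CXCL6, PF4V1 and CXCL1 follow. PF4, a platelet chemokine between CXCL1 and CXCL5, had log2 ratios of -0.11 and -0.49, and PPBP, PF4V1 and the pseudogene PPBPP2 were not well above background on any array. CXCL5, CXCL3 and CXCL2 come next. Beyond MTHFD2L lie genes of ligands of the epidermal growth factor receptor, namely EPGN, EREG, AREG and BTC, which did not change alike. EREG had log2 ratios of 4.06 and 3.50 and AREG of 3.77 and 2.73 at the top doses of EEDS and helveticoside, which exceeded those of all members of the row but CXCL8. MTHFD2L, next to CXCL2, had a log2 ratio of 1.24 with EEDS and a bound of 0.39 with helveticoside. At the ends of the stretch, AFP had -0.57 with EEDS and a bound of -1.19 with helveticoside. BTC had a bound of -0.92 with EEDS and no ratio with helveticoside. AFM and EPGN were not well above background on any array. These neighbours are named for their position and not for their values.

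**Figure D4:**
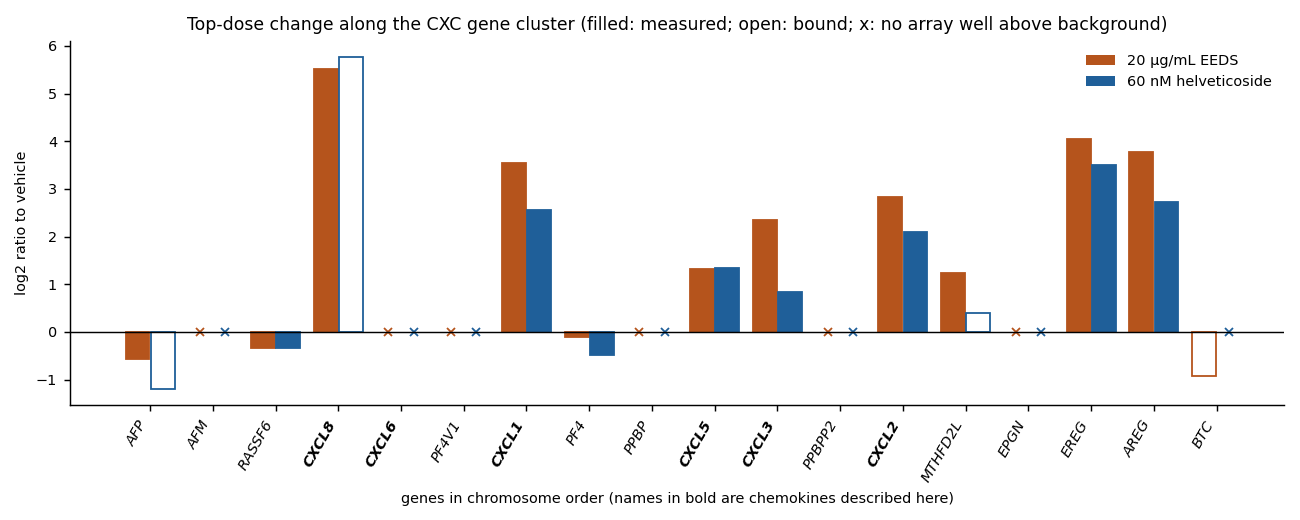
Log2 ratio to vehicle at 20 μg/mL EEDS (orange) and 60 nM helveticoside (blue) for 18 genes in chromosome order around the CXC cluster, with the chemokines described here in bold; distances between genes are not to scale. Filled bars are measured ratios, open bars are bounds and crosses mark genes for which no ratio is given; CXCL8 reaches 5.52 with EEDS while RASSF6 next to it is at -0.34.

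Most other chemokine ligands were not above background in these cells. Of 34 listed, 33 could be matched to a probe (all but XCL2). Of these, 20 were not well above background on any array. The 13 others were CXCL11, CXCL12, PF4, CCL4, CCL7, CCL14, CCL15, CCL16, CCL17, CCL19, CCL24, CCL26 and CCL27. At 20 μg/mL EEDS, 1 of 11 was more than 2-fold higher, namely CCL19 with a bound of at least 4.72-fold, and at 60 nM helveticoside 3 of 10 were, namely CCL14, CXCL11 and CCL15, the first 2 by bounds of at least 4.01-fold and 2.52-fold and CCL15 just past the limit. None was more than 2-fold lower. Over all genes, 15.4% and 11.5% were higher and 16.8% and 14.1% lower at these doses of EEDS and helveticoside. CCL19, a ligand of CCR7, rose with EEDS in the dose fit (limma adjusted p = 0.0256), as did CCL24 (limma adjusted p = 0.0315), whose log2 ratio was 0.84 at the top dose. CCL21 passed the test with helveticoside but was not well above background on any array. These genes were singled out after their values were seen.

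Of 23 chemokine receptors and decoy receptors, 14 were not well above background on any array. The receptors CXCR1 and CXCR2 of the neutrophil attractants were among these 14, as were CCR2, the receptor of CCL2, and CXCR6, the receptor of CXCL16. CCR6, the receptor of CCL20, was well above background on all arrays, with log2 ratios of -0.66 and -0.40 at the top doses of EEDS and helveticoside, and so was CXCR3, the receptor of CXCL10, with 0.15 and 0.09. CCR7 was more than 2-fold lower with both agents, by at least 24.2-fold at 20 μg/mL EEDS and at least 14.8-fold at 60 nM helveticoside, and it fell with EEDS (slope -1.83, SE 0.44, limma adjusted p = 0.0482). ACKR3, a decoy receptor, rose with helveticoside (limma adjusted p = 0.0267), with a log2 ratio of 1.13 at 60 nM. CXCR4 was well above background at 20 μg/mL EEDS only, at least 3.33-fold higher, and rose with EEDS (limma adjusted p = 0.0284). ACKR3, CXCR4, CCR6 and CXCR3 were named after their values were seen.

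Subunits and inhibitors of NF-kappa B had the highest median log2 ratios of these lists after the 2 proteases. Of 15 listed, 14 could be matched to a probe. The exception was NFKB2, which the paper lists among the genes up-regulated by EEDS. Of the 14, 9 were more than 2-fold higher at 20 μg/mL EEDS (15.4% of all genes) and 7 at 60 nM helveticoside (11.5%). None was more than 2-fold lower, beside 16.8% and 14.1% of all genes, and the median log2 ratio was 1.24 and 0.96. In the dose fit 7 rose with EEDS and 3 with helveticoside, beside 7.25% and 5.47% of all genes. RELB, a subunit, was 8.01-fold and 6.60-fold higher at the top doses and rose with both agents (limma adjusted p = 0.00719 and 0.0147). REL, another subunit, had log2 ratios of 2.97 and 1.85 and rose with EEDS (limma adjusted p = 0.0200). Inhibitors of the pathway were among the genes with the largest ratios. TNFAIP3, which encodes A20, had 4.55 with EEDS and at least 3.26 with helveticoside, NFKBIE had 3.80 and 2.69, and NFKBIB had 2.12 and 1.76. NFKBIB rose with both agents (limma adjusted p = 0.0137 and 0.0185), and TNFAIP3 and NFKBIE rose with EEDS (limma adjusted p = 0.0303 and 0.0314). NFKBIA, another inhibitor, had 1.34 and 0.22, and its trend did not pass the test (limma adjusted p = 0.367 and 0.999). Of the same list, NFKBIZ had -0.26 and -0.60, and BCL3 had -0.31 and -0.34. NFKBIA, NFKBIZ and BCL3 were named after their values were seen.

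Among the cytokines that induce chemokines and their receptors and adaptors, 8 of 16 were more than 2-fold higher at 20 μg/mL EEDS and 3 lower. Over all genes 15.4% were higher and 16.8% lower there. Of the higher ones, IL1A, TNF, IL6 and IL17C were bounds against a control that was not well above background. At 60 nM helveticoside 4 of 13 were higher and 2 lower, beside 11.5% and 14.1% of all genes. The median log2 ratio was 0.87 and 0.19. IRAK2, a kinase of the interleukin 1 receptor pathway, had 3.71 and 3.29 at the top doses and rose with both agents (limma adjusted p = 0.0129 and 0.0165). IL1RAP, a chain of the interleukin 1 receptor, had 3.26 and 3.48 and rose with both (limma adjusted p = 0.0190 and 0.0200), as did LIF with 3.07 and 2.27 (limma adjusted p = 0.0144 and 0.0229) and TRAF2 with 1.60 and 1.17 (limma adjusted p = 0.0190 and 0.0318). IL1R1, the signalling receptor of interleukin 1, went the other way, with -1.17 and -1.31, and its trend did not pass the test (limma adjusted p = 0.0570 and 0.0501). MYD88, its adaptor, had -0.90 and -0.99 (limma adjusted p = 0.0758 and 0.0672). TNFRSF1A, the main receptor of tumour necrosis factor, had -1.83 and -1.40, and its trend did not pass the test (limma adjusted p = 0.0912 and 0.162). TNF and IL6 were at least 3.46-fold and 3.25-fold higher at 20 μg/mL EEDS against controls that were not well above background, and IL1B was not well above background on any array. IL1R1, MYD88, TNF, IL6 and IL1B were singled out after their values were seen.

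Among the listed regulators of mRNA stability, not all of which act through AU-rich elements, RC3H1 and ZFP36L1 rose with both agents. Of 11 genes, 5 were past 2-fold higher and 0 past 2-fold lower at 20 μg/mL EEDS, beside 15.4% and 16.8% of all genes. At 60 nM helveticoside 3 were higher and 1 lower, beside 11.5% and 14.1%. The median log2 ratio was 0.36 and 0.40. RC3H1, which encodes roquin, had log2 ratios of 2.40 and 1.91 at the top doses (limma adjusted p = 0.0190 and 0.0304). ZFP36L1 had 1.51 and 1.06 (limma adjusted p = 0.0159 and 0.0376). ZFP36, which encodes the mRNA-destabilising protein tristetraprolin, had 2.55 and 1.16, and its trend did not pass (limma adjusted p = 0.0911 and 0.466).

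Of the genes listed for the interferon response, some of which are induced by interferon as CXCL10 is, IFIT1 fell with both agents. Of 12 compared at 20 μg/mL EEDS, 5 were more than 2-fold lower and 1 higher, beside 16.8% and 15.4% of all genes. Of 10 compared at 60 nM helveticoside, 3 were lower and 1 higher, beside 14.1% and 11.5%. The median log2 ratio was -0.78 and -0.19. OAS1, an antiviral enzyme, was 8.34-fold lower at 20 μg/mL EEDS and at least 9.74-fold lower at 60 nM helveticoside, and its trend did not pass the test (limma adjusted p = 0.0760 and 0.0798). The trend of IFIT1 passed (limma adjusted p = 0.0133 and 0.0195), and the gene was at least 6.87-fold and 3.49-fold lower. ISG15 rose with helveticoside (limma adjusted p = 0.0420), with a log2 ratio of 0.83 at 60 nM, and IRF1 was 5.62-fold higher at 20 μg/mL EEDS, with a trend that did not pass (limma adjusted p = 0.207). ISG15 and IRF1 were named after their values were seen.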

How the data were processed

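The authors deposited, for each of the 8 arrays of pooled RNA, the spot intensity that the Agilent Feature Extraction software gave (median signal, local background, background-subtracted processed signal and flags). A second deposited table of intensity holds, judging by its values, the median signal minus background after quantile normalisation within each series. Its log2 is used only as an alternative. Of 44495 spots per array, 43118 belonged to 34127 probes. Median signals were 182 to 278 over a local background of 27 to 34, well above background were 54.5% to 64.9% of probes, and 0 spots were saturated. Precision is limited by the number of arrays. Outlier spots were left out, and so were 22 probes whose spots were all outliers on an array. The processed signal was averaged over spots, quantile-normalised over the 8 arrays and put on the log2 scale.

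Through the accession in the files, 24812 probes matched 19056 RefSeq genes, and the brightest probe on average stood for each of 4797 genes that had several. The methods' limit of 1.4 times the local background, which nearly all probes pass, was an alternative to the well-above-background call. The dose step was fitted in R 4.3.3 with limma 3.58.1 and, for robust estimation with a trend, statmod 1.5.0, giving each series its own intercept and slope, and p-values were adjusted by the Benjamini-Hochberg procedure over all genes with a threshold of 0.05. The scripts were tested on simulated data. Ratios, lists and promoters were handled in pandas 2.3.3 and numpy 2.4.6 under Python 3.11.15, with Biopython 1.88 for alignments.

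Named genes are the 10 chemokines, up to 5 genes of each list that were more than 2-fold changed the same way at the top dose of both agents, and the 5 genes nearest to CXCL8. The chemokines, lists, tests and alternatives were chosen with earlier results of these data known, so no list is independent evidence. The values of some list members are left out of the text. The files carry no slide or scan information, so no batch other than the series could be examined.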

Additional observations from a re-analysis of the deposited data

How the results depend on the processing

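With 1 array a dose, no replicate could be left out, and each of the 8 arrays was left out of the dose fit in turn instead. The number of genes with a rising EEDS trend, 1382 with all arrays, was then 0 to 1256, and 0 without the EEDS control or 20 μg/mL EEDS. The number with a rising helveticoside trend, 1043 with all arrays, was 0 to 743, and 0 without the array at 15 or 60 nM, and it was 238 without the helveticoside control, 363 without 1.25 μg/mL EEDS, 387 without 5 μg/mL and 481 without 3.75 nM. The EEDS count was 457 without 15 nM helveticoside, 836 without 1.25 μg/mL EEDS and 861 without 60 nM helveticoside. The chemokines called rising numbered 0 to 4 with EEDS and 0 to 2 with helveticoside. The number whose slopes differed between agents stayed at 0 in every fit.

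The count of chemokines past 2-fold was recomputed with the signal as scanned, normexp, scaling to the 75th percentile, the deposited values, the mean of all probes, the other series' control, and the limit of 1.4 times background or no filter. Then 7 chemokines were more than 2-fold higher at 20 μg/mL EEDS under each, and 5 to 7 at 60 nM helveticoside, though not the same ones. Against the EEDS control, CCL2 (0.74) was no longer past 2-fold at 60 nM, while CXCL3 (1.45) and CCL20 (1.66) were. Of 96 recomputed top-dose log2 ratios, 81 moved by less than 0.65, the SD of the log2 difference of the 2 controls over all 19056 genes, 15 moved more and 0 changed sign. The ratio of CXCL8 ranged from 4.43 to 6.16 with EEDS and from 4.02 to 5.76 with helveticoside, that of CCL20 with EEDS from 1.87 to 3.45, that of CXCL3 with EEDS was 1.24 with normexp beside 2.36 here, and that of CXCL1 with EEDS ranged from 2.83 to 3.89. With scaling to the 75th percentile, the median over all genes was -0.20, -0.21 and -0.36 on the log2 scale along EEDS and 0.14, -0.12 and -0.18 along helveticoside. No paired analysis was possible because each group holds 1 array. Values near background limit CXCL6, CXCL10, CCL20 and the helveticoside control of CXCL8.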
